A study of Mus musculus with 4 samples.

Results

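The genes of the IGF-binding proteins (IGFBPs), of the IGF receptors and of their substrates were examined in cultured keratinocytes (KCs) of WT and Nfat5-/- mice. The members were the rows of the per-library gene tables named Igfbp2 to Igfbp7, Igf1r, Igf2r, Irs1 and Irs2. All 10 were found among the 25814 genes listed. KCs were prepared from the tails of adult 129/sv mice, grown without further treatment in serum-free medium with 0.06 mM calcium, and their polyadenylated RNA was sequenced. There were 2 libraries labelled Wildtype (WT) and 2 labelled Nfat5-Knockout (Nfat5-/-), described as independent experiments, with littermates as WT mice. The Nfat5-/- mice lack NFAT5, a transcription factor activated by osmotic stress. The methods describe 129sv mice, without naming a genotype, as small, with atrophied kidneys and lasting hypernatremia, and the tails of both genotypes were kept on ice overnight before KCs were prepared.

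Insulin-like growth factors (IGFs) are secreted peptides that drive growth and survival through IGF1R, a receptor tyrosine kinase. IGF2R, which is also the cation-independent mannose 6-phosphate receptor, takes up IGF2 for degradation. IGFBP2 to IGFBP6 hold IGFs in the extracellular space with high affinity, whereas IGFBP7 binds them weakly. IRS1 and IRS2 are docking proteins that link the activated receptor to phosphoinositide 3-kinase. In skin, IGF1 is known to be made mainly by dermal fibroblasts and melanocytes and to act on KCs, which carry the receptor.

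The libraries held 16219445 to 23494436 gene reads, so that 3 reads corresponded to between 0.128 and 0.185 CPM (reads scaled to a common library size). These floors cover counting error only. Nfat5 itself gave 408 and 929 reads in the WT libraries and 715 and 770 in those labelled Nfat5-/- (log2 fold change 0.09, SE 0.26, edgeR adjusted p = 0.913). The total per gene did not separate the labels and does not show which exons were read, so each direction here rests on the labels. Of the 8 markers of basal KCs, Krt5, Krt14, Trp63, Itgb4, Itga6, Cdh1 and Lamb3 were abundant in every library, while Krt15 stayed at or below 0.440 RPKM. Past the threshold, 1 of these 8 was lower in Nfat5-/- (Lamb3, edgeR adjusted p = 0.0123) and 1 of 7 suprabasal markers higher (Krtdap, 0.0251), and the others of both lists did not pass. Summed RPKM (reads scaled to exon length and mapped reads) of the 7 smooth muscle and pericyte markers was 151 to 184 in WT and 518 to 819 in Nfat5-/-, mostly from Acta2. All 4 of them that were tested (Acta2, Tagln, Cnn1 and Myh11) rose, by log2 fold changes of 2.00 to 4.71. Their edgeR adjusted p-values were 0.00768 to 0.0440. The value of 4.71 was that of Myh11, on 1 and 1 reads in WT and 22 and 40 in Nfat5-/-. Of those not tested, Rgs5 was at 0 reads and Des at no more than 1 read. Pdgfrb, also not tested, had 5 and 3 reads in WT and 11 and 2 in Nfat5-/-, with overlap. Summed RPKM of the 8 fibroblast markers was 0.685 to 0.750 in WT and 1.15 to 2.02 in Nfat5-/-. For the 6 melanocyte markers it was 7.20 to 7.54 and 2.30 to 3.20, where Tyrp1 fell (edgeR adjusted p = 0.0203). Of the 5 melanocyte markers tested 4 had a negative log2 fold change, while that of Mitf was 0.27 (edgeR adjusted p = 0.761). The 6 immune markers summed to 2.40 to 4.17 RPKM in WT and 4.71 to 5.64 in Nfat5-/-, and the 6 endothelial markers to 0.875 to 0.899 and 0.747 to 0.859. In edgeR 0 of the 4 fibroblast, 3 immune and 3 endothelial markers tested passed. At an unadjusted p under 0.05 there were 1, 1 and 0 of them, against 14.6% of all genes tested. The part of these cells in the results was not tested, and in bulk RNA fewer cells of a type and less RNA per cell cannot be told apart.

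Igfbp2 and Igfbp5 are neighbours on chromosome 1 (GRCm38) that converge on each other with 5457 bases between their ends. Igfbp2 occupies positions 72824503 to 72852474 and Igfbp5 positions 72857932 to 72874884. NFAT5 binds the tonicity-responsive enhancer (TonE), whose core is TGGAAA. In the 250 bases before the start sites given by RefSeq (GRCm38.p6), the TonE consensus was found on either strand in 1 of the 11 windows of the 10 members, that of Igfbp5. Over all 32851 such windows it was found in 4.31%, and TGGAAA, its core, in 18.6%. The sole TGGAAA in the windows of the members was the core of this match. The last 120 bases before the RefSeq start are shown for Igfbp5 (chr1:72874866-72874985, minus strand), as the window with the match, and for its neighbour Igfbp2 (chr1:72824360-72824479, plus strand), as a window without it. Capitals mark the TonE match, which ends at the base before the start. The gene tables start Igfbp5 slightly upstream of the RefSeq site, so that the match lies within the gene as they draw it.
Igfbp5: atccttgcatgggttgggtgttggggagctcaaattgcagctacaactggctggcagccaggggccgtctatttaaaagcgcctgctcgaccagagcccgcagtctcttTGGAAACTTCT
Igfbp2: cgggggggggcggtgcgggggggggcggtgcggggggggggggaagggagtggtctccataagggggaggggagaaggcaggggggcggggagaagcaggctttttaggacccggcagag
A match of letters is a description of the sequence and does not show binding. Igfbp5, the gene with the match, had the lowest RNA level of the members.

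The levels of the 10 genes were compared on the RPKM scale, which allows for exon length. Igfbp7 was the highest, with a mean of 209.6 RPKM over the 4 libraries, above 97.6% of the genes tested. It was followed by Igfbp3 (41.0 RPKM), Igf2r (17.9 RPKM), Igf1r (10.7 RPKM), Igfbp2 (6.44 RPKM), Irs2 (5.14 RPKM) and Irs1 (1.51 RPKM). Igfbp4 (0.435 RPKM), Igfbp6 (0.210 RPKM) and Igfbp5 (0.0304 RPKM) came last. Neighbours in this order had ranges over the libraries that did not meet, except for Igfbp2, whose range took in those of Igf1r and Irs2. In the plot of levels by library this shows as a ladder of compact clusters broken by the spread of Igfbp2.

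**Figure D1:**
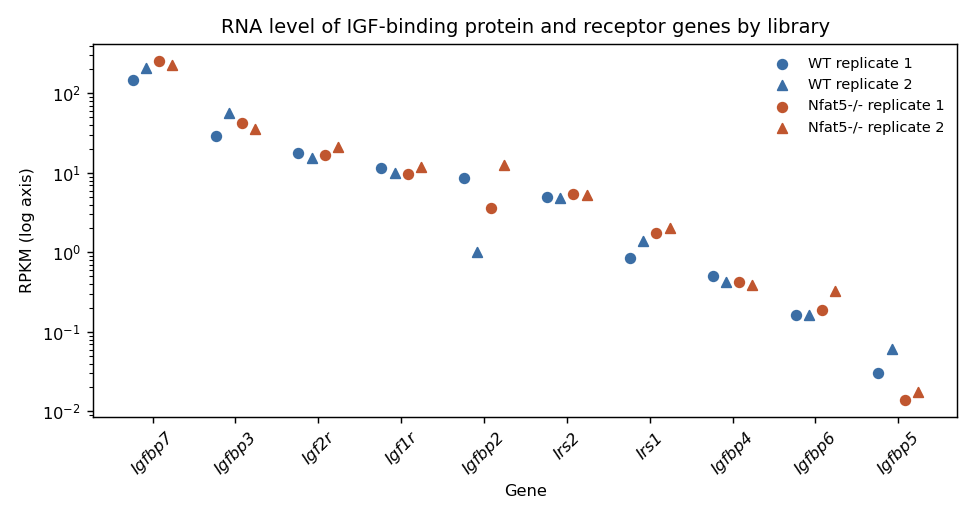
RPKM (log axis) of the 10 genes in the 2 WT (blue) and 2 Nfat5-/- (orange) libraries, with circles for replicate 1 and triangles for replicate 2, ordered by the mean of all 4. Igfbp7 lies between 147 and 256 RPKM in every library, while Igfbp2 runs from 1.02 to 12.5 RPKM.

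The comparison between the genotypes asked whether loss of NFAT5 changed the RNA of these genes. In the edgeR quasi-likelihood test over 12614 genes, 0 of the 8 members tested had an adjusted p under 0.05, against 1.27% of all genes tested. DESeq2 also called 0 of them, and limma-trend 0 of the 7 that passed its RPKM filter. At an unadjusted p under 0.05 there were 2 of 8, Irs1 and Igfbp7, against 14.6% of all genes. The groups did not overlap in CPM for 4 of 8, namely Irs1, Irs2 and Igfbp7, which were higher in Nfat5-/-, and Igfbp4, which was lower. The background of this count was 47.8%. By the 2-fold RPKM criterion of the kind used in the study (group means apart by a ratio of 2 or more, the higher mean 2 RPKM or more, and libraries without overlap) 0 of the 6 members that reached this mean passed, against 2.28% of all genes that did. The means of Irs1, Igfbp4, Igfbp5 and Igfbp6 stayed below it. The median log2 fold change of the 8 members was 0.18, beside -0.01 over all genes tested. Igfbp5 and Igfbp6 did not pass the filter on low counts and were not tested.

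**Figure D2:**
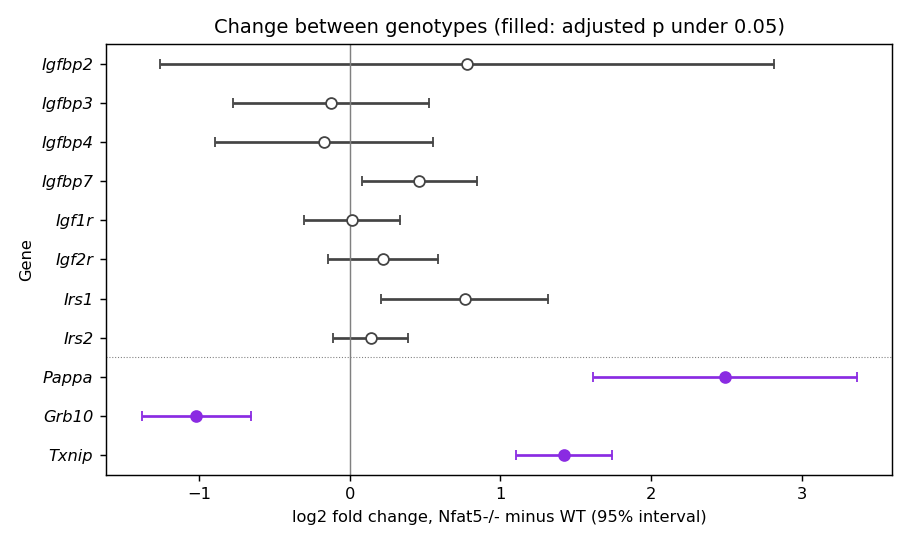
Log2 fold change with its unadjusted 95% interval for the 8 members tested (grey) and for 3 other pathway genes past the threshold (violet). Filled points have an edgeR adjusted p under 0.05, and the interval of Igfbp2 runs from -1.26 to 2.82.

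Among the binding proteins, Igfbp7, whose product is a secreted protein bound to matrix and vessel walls, carried most of the RNA. It spans positions 77349240 to 77408041 of chromosome 5 in 8 exons. Its level was 147 and 207 RPKM in WT against 256 and 229 in Nfat5-/-. Both Nfat5-/- libraries thus lay above both WT libraries, by a ratio of 1.37 between the means of 177 ± 42.4 and 243 ± 19.4 RPKM (SD, n = 2 each). The log2 fold change was 0.46 (SE 0.16, 95% interval 0.08 to 0.84) and stayed short of the threshold (edgeR adjusted p = 0.264). It passed when WT replicate 2 was left out, with a log2 fold change of 0.73 and an edgeR adjusted p of 0.0325, whereas without WT replicate 1 these were 0.25 and 0.610. On the annotation used (GENCODE M21, same build) Polr2b and Gm34648 overlap it on the opposite strand, and no source used here says that strand was used in counting. Igfbp7 made up 77.8% to 79.4% of the summed RPKM of the 6 IGFBP genes in WT and 82.3% to 84.7% in Nfat5-/-.

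Igfbp3, the gene of the main carrier of IGFs in serum, lies on chromosome 11 (7206086 to 7213923). It measured 28.8 and 57.2 RPKM in WT against 41.9 and 36.1 in Nfat5-/-. Both Nfat5-/- values lay between the WT values, and the log2 fold change of -0.13 (SE 0.28, 95% interval -0.78 to 0.53) had an edgeR adjusted p of 0.882. The direction depended on WT replicate 2, without which it was 0.45. Its neighbour Igfbp1, at 3539 bases from it, had 0 reads in every library. These libraries allow a level of up to 0.128 to 0.185 CPM for a count of 0.

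Igfbp2 encodes a binding protein that carries an integrin-binding motif. It varied more between replicates than between genotypes, with 8.65 and 1.02 RPKM in WT against 3.58 and 12.5 in Nfat5-/-. These levels rest on 212, 33, 126 and 349 reads. WT replicate 2 was the lowest and replicate 2 of Nfat5-/- the highest, so that the groups overlapped. The fold between libraries of a genotype was 8.48 in WT, a size reached by 0.333% of the genes tested, and 3.57 in Nfat5-/-, reached by 0.484%. The log2 fold change of 0.78 (SE 0.87, adjusted p = 0.738 by edgeR) was smaller than its own error. It was 2.998 without WT replicate 1 and 1.44 without Nfat5-/- replicate 1, and turned to -0.11 without WT replicate 2 and -0.41 without Nfat5-/- replicate 2.

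The other binding proteins were scarce. Igfbp4 (chromosome 11, 99041244 to 99054392) measured 0.506 and 0.426 RPKM in WT against 0.423 and 0.387 in Nfat5-/-, on 29 to 40 reads per library. Its groups stood apart by a margin far below the replicate difference (log2 fold change -0.17, SE 0.31, edgeR adjusted p = 0.846). Igfbp6 (chromosome 15, 102144362 to 102149511), whose product prefers IGF2, had 4 and 4 reads in WT and 5 and 7 in Nfat5-/-. Igfbp5 had 3 and 8 reads in WT and 2 and 2 in Nfat5-/-, and none of them crossed an exon junction. At these counts no difference was detectable. Within the sum of Igfbp2 to Igfbp6, Igfbp3 supplied 75.5% and 97.2% of the RPKM in WT and 90.9% and 73.2% in Nfat5-/-.

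Both receptor genes were well covered. Igf1r (chromosome 7, 67952827 to 68233668, 21 exons) measured 11.5 and 9.87 RPKM in WT against 9.80 and 11.8 in Nfat5-/-. The groups covered nearly the same range, with a log2 fold change of 0.02 (SE 0.14, adjusted p = 0.974 by edgeR). The 95% interval, from -0.30 to 0.33, contained no change larger than 1.26-fold either way. Insr, the gene of the insulin receptor with which IGF1R forms hybrids, was much lower at 0.679 and 0.567 RPKM in WT against 0.578 and 0.646 in Nfat5-/-. Igf1r thus exceeded Insr by 16.9- to 18.2-fold per exon length in each library.

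Igf2r (chromosome 17, 12682406 to 12769664, 53 exons) measured 18.1 and 15.2 RPKM in WT against 16.8 and 21.5 in Nfat5-/-. The groups overlapped, and the log2 fold change of 0.22 (SE 0.16, 95% interval -0.15 to 0.59) had an edgeR adjusted p of 0.578. With a library left out it ranged from 0.010 (without Nfat5-/- replicate 2) to 0.41 (without Nfat5-/- replicate 1). Airn, an antisense RNA inside this gene that is known to silence the paternal copy, was not analysed here. M6pr, the other mannose 6-phosphate receptor, was at 70.7 and 78.3 RPKM in WT against 82.7 and 79.1 in Nfat5-/- (edgeR adjusted p = 0.594).

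The substrates had unlike levels. Irs1 (chromosome 1, 82233101 to 82291416, 2 exons) measured 0.849 and 1.37 RPKM in WT against 1.74 and 2.06 in Nfat5-/-. Each Nfat5-/- library was above each WT library, and the means of 1.11 ± 0.371 and 1.90 ± 0.221 RPKM (SD, n = 2 each) gave a ratio of 1.71. The log2 fold change was 0.76 (SE 0.23, 95% interval 0.21 to 1.31), and at an edgeR adjusted p of 0.206 Irs1 came closest of the members to the threshold. Without WT replicate 2, the log2 fold change was 1.15 with an edgeR adjusted p of 0.0293, and without WT replicate 1 it was 0.48 with 0.436. Of its exon reads 70.3% were placed at a single site. With these alone the log2 fold change was 0.85 and the edgeR adjusted p 0.124. Gm9747 overlaps Irs1 on the opposite strand.

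Irs2 (chromosome 8, 10984681 to 11008458, 2 exons) was more abundant and nearly constant, at 4.96 and 4.89 RPKM in WT against 5.44 and 5.28 in Nfat5-/-. The log2 fold change of 0.14 (SE 0.11, 95% interval -0.11 to 0.39) had an edgeR adjusted p of 0.607. The ratio of Irs2 to Irs1 was 5.84 and 3.56 in WT and 3.12 and 2.57 in Nfat5-/-, without overlap of the groups. As Irs2 was nearly constant, this ratio mostly restates the values of Irs1. The groups of 47.8% of all genes tested did not overlap in CPM. The 3 tested genes whose CPM lay closest to Irs1 in pattern over the 4 libraries were Ttll10, Zfp235 and Smim22, at Euclidean distances from 0.0851 to 0.113 on the centred log2 scale. With 4 libraries, such a likeness is a description only.

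**Figure D3:**
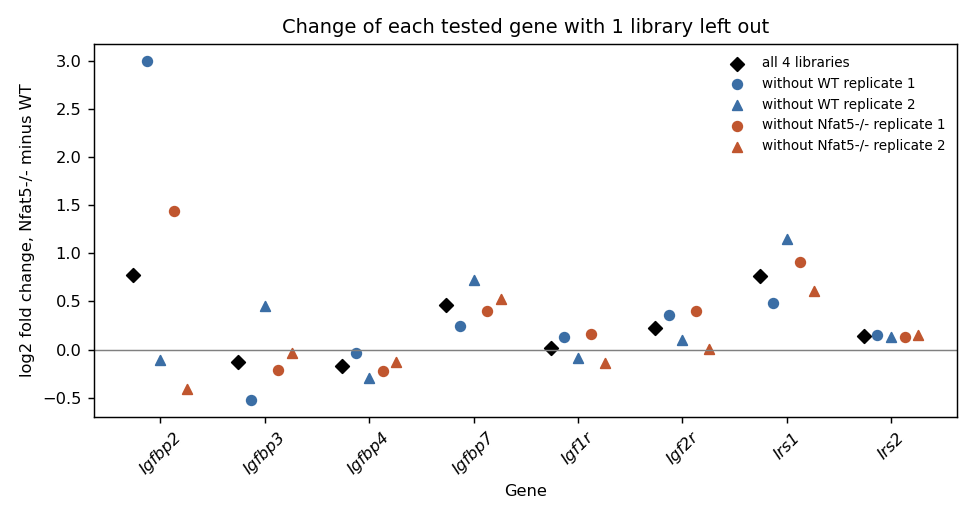
Log2 fold change of the 8 members tested with all 4 libraries (black diamonds) and with each library left out in turn. Igfbp2 runs from -0.41 to 2.998 and Igfbp3 changes sign, while Irs2 stays between 0.13 and 0.16.

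The rest of the pathway was followed in 78 further genes, of which 59 were tested. Of these, 2 were higher in Nfat5-/- (Pappa and Txnip) and 1 was lower (Grb10) past the threshold, against 0.943% and 0.325% of all genes tested. An unadjusted p under 0.05 was found for 14 of the 59, against 14.6% of all genes tested. The median log2 fold change of the 59 genes was 0.07. The lists were chosen for their place in the pathway, and the counts are given as a description.

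**Figure D4:**
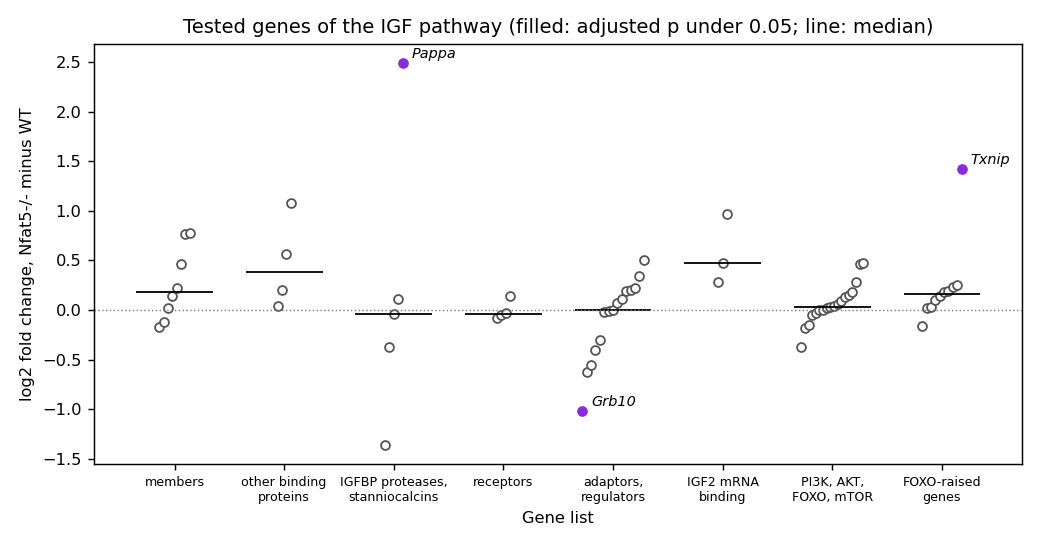
Log2 fold change of each tested gene, by list, with horizontal lines at the medians and filled violet points for an edgeR adjusted p under 0.05. Pappa (2.49), Txnip (1.42) and Grb10 (-1.02) are the filled points, and none lies among the members.

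The ligands were nearly absent from the KCs. Igf1 gave 2 and 3 reads in WT and 3 and 0 in Nfat5-/-. Igf2 gave 1 and 2 reads in WT and 16 and 4 in Nfat5-/-, with 0% of its exon reads at a single site, so that its values are uncertain. Ins1 had 0 reads in every library and Ins2 had 1 read in all. None of the 4 could be tested.

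Of the 12 genes for other binding or IGFBP-related proteins 4 were tested, and 0 passed the edgeR threshold. Of the 4, 2 had an unadjusted p under 0.05, against 14.6% of all genes tested. Cyr61 and Ctgf, whose products share the amino-terminal domain of IGFBPs, were more abundant than any IGFBP gene. Cyr61 was at 304 and 370 RPKM in WT against 359 and 324 in Nfat5-/-. Ctgf was at 247 and 231 RPKM in WT against 320 and 379 in Nfat5-/- (log2 fold change 0.57, SE 0.12, edgeR adjusted p = 0.0867). Wisp1 had the largest log2 fold change of this list, 1.08 (SE 0.41, edgeR adjusted p = 0.297), and without WT replicate 2 it had 2.07 with an edgeR adjusted p of 0.0132. Without WT replicate 1 these were 0.56 and 0.490.

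Among 9 genes for proteases that cut IGFBPs and for stanniocalcins 5 were tested and 1 passed, against 1.27% of all genes tested. An unadjusted p under 0.05 in edgeR was found for 3 of the 5, against 14.6%. Pappa encodes pappalysin 1, which releases IGFs by cutting IGFBP4, IGFBP5 and, less strongly, IGFBP2. It rose from 0.109 and 0.221 RPKM in WT to 0.749 and 1.17 RPKM in Nfat5-/-, on 22, 60, 211 and 271 reads. The log2 fold change was 2.49 (SE 0.37, 95% interval 1.61 to 3.37, edgeR adjusted p = 0.0324). With limma-trend it was 0.74 on the log2(RPKM + 1) scale and 2.00 on the log2(RPKM + 0.1) scale, with adjusted p-values of 0.0715 and 0.0741. Without replicate 1 or 2 of Nfat5-/- the log2 fold change was 2.82 or 2.10 and the edgeR adjusted p 0.0653 or 0.154, and without WT replicate 2 these were 3.12 and 0.00686. Stc2, whose product stanniocalcin 2 inhibits pappalysin 1, measured 8.14 and 3.94 RPKM in WT against 2.74 and 1.73 in Nfat5-/-. Its log2 fold change of -1.36 (SE 0.35) had an edgeR adjusted p of 0.140. The adjusted p was 0.00695 without WT replicate 2 and 0.00471 in DESeq2, but 0.304 without WT replicate 1, where the log2 fold change was -0.74, and 0.568 without Nfat5-/- replicate 2. Htra1, a secreted protease, was the most abundant of the list with 948 and 789 RPKM in WT against 879 and 974 in Nfat5-/-, although only 24.02% of its exon reads were placed at a single site.

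Of the 15 adaptors and regulators tested at the receptor, 1, Grb10, passed the threshold, against 1.27% of all genes tested. An unadjusted p under 0.05 in edgeR was found for 4 of the 15 (Grb10, Socs1, Socs2 and Socs3), against 14.6%. The product of Grb10 binds activated IGF1 and insulin receptors and dampens their signal. Grb10 (chromosome 11, 11930508 to 12038683) fell from 8.09 and 9.54 RPKM in WT to 4.95 and 3.71 RPKM in Nfat5-/-, a log2 fold change of -1.02 (SE 0.15, 95% interval -1.38 to -0.66, edgeR adjusted p = 0.0338). Without replicate 1 or 2 of Nfat5-/- the edgeR adjusted p was 0.0649 or 0.143. With limma-trend on log2(RPKM + 0.1) the adjusted p was 0.0504. The genes of the cytokine-induced inhibitors Socs1, Socs2 and Socs3 had log2 fold changes of -0.56, -0.62 and -0.40 and edgeR gave adjusted p-values of 0.315, 0.136 and 0.284. The other receptor genes, 4 of 5 tested, had edgeR adjusted p-values of at least 0.594 and 0 with an unadjusted p under 0.05.

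Of the 18 genes of the PI3K, AKT, FOXO and mTOR branch reported here 0 passed in edgeR and 3 had an unadjusted p under 0.05, a share near the 14.6% of all genes. Foxo3 encodes a transcription factor that AKT keeps out of the nucleus. It had 9.59 and 9.07 RPKM in WT against 11.9 and 13.6 in Nfat5-/-. Its log2 fold change was 0.48 (SE 0.11, edgeR adjusted p = 0.112), and DESeq2 gave an adjusted p of 0.0347. Akt1, the gene of the most widely expressed AKT kinase, had a log2 fold change of 0.03 (edgeR adjusted p = 0.937). Of 10 genes known to be raised by FOXO factors 1, Txnip, passed, and no other had an unadjusted p under 0.05. Txnip, whose product binds thioredoxin and curbs glucose uptake and which is also known to respond to glucose itself, rose from 4.45 and 4.52 RPKM to 11.1 and 12.6 RPKM (log2 fold change 1.42, SE 0.14, edgeR adjusted p = 0.0114, and 0.0559 without Nfat5-/- replicate 2). The 3 genes for IGF2 mRNA-binding proteins had 0 calls by edgeR and 1 unadjusted p under 0.05, against 14.6% of all genes. It was that of Igf2bp2 (log2 fold change 0.48, SE 0.11, edgeR adjusted p = 0.104). The largest difference of the list was that of Igf2bp3, 0.97 (SE 0.52, edgeR adjusted p = 0.445), on 7 to 22 reads per library, of which 1 to 7 were in exons.

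The tables also count reads in introns, which were set beside the gene reads of the members with at least 10 of them. Intron reads took 1.80% and 1.90% of the gene reads of Igfbp7 in WT and 0.692% and 1.07% in Nfat5-/-. For Igf1r the shares were 4.32% and 5.17% in WT against 3.03% and 3.35% in Nfat5-/-. Both genes thus had a smaller intron share in each Nfat5-/- library than in each WT library. For Igf2r the shares were 2.48% and 2.63% against 2.00% and 2.39%, and for Irs1, on 13 to 32 intron reads, 9.15% and 8.55% against 6.34% and 8.18%. Igfbp3, on 2 to 18 intron reads, had 0.333% and 0.452% against 0.0632% and 0.277%, also lower without overlap, and Irs2, on 3 to 7, had 0.573% and 1.01% against 0.5995% and 0.469%, with overlap. A lower share without overlap of the groups was found in 41.4% of the 2182 tested genes with at least 100 intron reads. Irs1, Igfbp3 and Irs2 had fewer than 100 and are outside that set, so their shares have no matching background here. Introns took 1.94% to 1.97% of all gene reads in WT and 1.79% to 1.85% in Nfat5-/-.

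**Figure D5:**
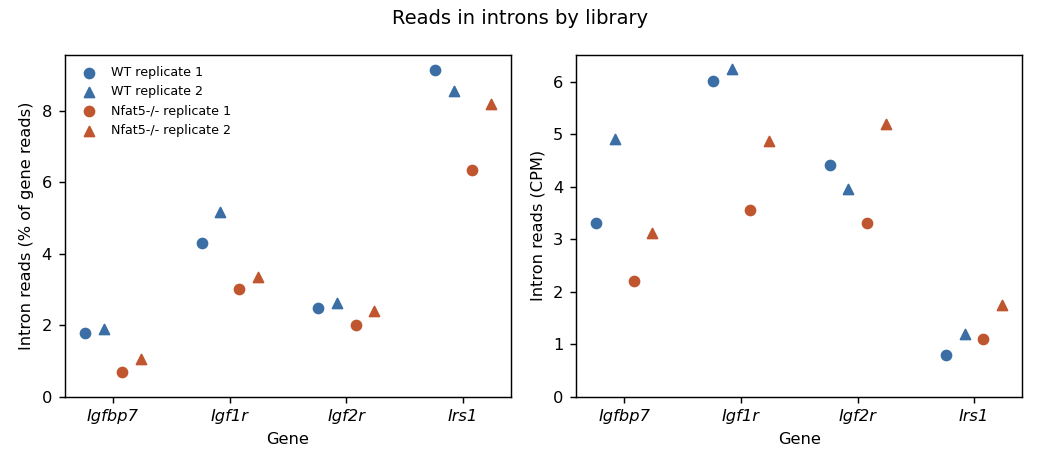
Intron reads of 4 members as a percentage of their gene reads (left) and in CPM (right), by library, with WT in blue and Nfat5-/- in orange. The share is lower in both Nfat5-/- libraries for all 4 genes, and the CPM for Igfbp7 and Igf1r.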

How the data were processed

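KCs from the tails of adult 129/sv WT and Nfat5-/- mice were sequenced by the authors (4 libraries), who trimmed the reads and aligned them to GRCm38 with the CLC Genomics Workbench (v12.0, default settings). The deposited counts are reads per gene, in exons and in introns, not normalized. How multiply placed reads were assigned is not given in the sources used here. The authors also deposited RPKM values. Total gene reads of 16219445 to 23494436 per library were filtered with filterByExpr (12614 genes left), scaled with TMM factors (0.980 to 1.01) and tested with edgeR 4.0.16 (quasi-likelihood, genotype as the sole term, two-sided, Benjamini-Hochberg over all genes tested, threshold 0.05). SE was taken as |log2 fold change|/√F, and intervals use the t quantile of the fit. P-values measure the spread between these libraries only. RPKM ratios carry no test. DESeq2 1.42.0, limma 3.58.1, other scalings, filters and read classes, a replicate block and each library left out were the alternatives. The edgeR, DESeq2 and limma fits were run on simulated counts with the edgeR dispersions of these data, limma there on CPM in place of RPKM. Changes of the size of those of Igfbp7 and Irs1 were not simulated. Fits without a library kept the same genes. All 10 members and the pathway genes past the threshold are named, with the ligands, Insr, Pappa, Stc2, Htra1 and the largest change of each list among the genes reported. One result of the pathway lists is not reported here, and the list counts leave it out. Cyr61, Ctgf, the Socs genes, Akt1 and Igf2bp2 were named after their values were seen. The members and lists were chosen with earlier results of these data known. Gene coordinates are those of the tables, which match GENCODE M21 for the members, and promoters are from RefSeq.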

Additional observations from a re-analysis of the deposited data

Results flagged for a closer look

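The intron reads, which the comparisons of genotype did not use alone, were higher in Nfat5-/- without overlap in Pappa and Foxo3, among the genes named by the rule given above that had at least 10 of them. For Pappa they were 2 and 6 reads in WT and 12 and 25 in Nfat5-/-, a ratio of mean CPM of 4.71. For Foxo3 they were 4 and 12 in WT and 27 and 18 in Nfat5-/-, a ratio of 2.67. Such a higher intron CPM without overlap was found in 9.82% of the 9784 tested genes with at least 10 intron reads over the libraries, and the gene CPM of both was higher in Nfat5-/- too. Cyr61, named after its values were seen, was also higher without overlap, with 0.982 and 1.01 CPM in WT against 1.02 and 1.26. In 36.0% of those genes the intron CPM was lower in Nfat5-/- without overlap, among them Grb10 (ratio 0.213), Stc2 (0.508) and Htra1 (0.636). The intron reads were not tested between the genotypes.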

How the results depend on the processing

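The count of 0 members past the threshold held under 9 of the 10 alternatives that keep all libraries. Without a filter on low counts 3 members passed (Igfbp2, Igfbp7 and Irs1), and 1137 of all genes in place of 160. DESeq2 called 427 genes and 0 members. With 1 library left out, 0 to 2 members and 25 to 391 genes passed, the 2 members being Igfbp7 and Irs1 without WT replicate 2, and 0 to 1 members reached the 2-fold RPKM criterion, namely Igfbp2 without WT replicate 1 or Nfat5-/- replicate 1. The log2 fold change of Igf1r turned to -0.0067 with library totals. With a library left out, Igfbp2 ranged from -0.41 to 2.998, Igfbp3 from -0.53 to 0.45, Igf1r from -0.14 to 0.16, Insr from -0.24 to 0.11 and Htra1 from -0.019 to 0.26. The cause of these shifts was not tested. A lone library is assumed to vary like the others. The replicate number as a block left 0 members and 132 genes, with edgeR adjusted p-values of 0.0559 for Grb10 and 0.0297 for Stc2. The correlation of the deviations of same-numbered libraries was -0.0977, so the numbers were not taken as pairs. Depth limits Igfbp4, Igfbp5 and Igfbp6 most.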

Other observations

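Igfbp2 differed between replicates in a way that few genes shared. Of the 12614 genes tested, 42 differed at least as much between the WT libraries and 61 between the Nfat5-/- libraries. The genes with the pattern closest to it over the 4 libraries were Gm9774, Zbtb16 and Pakap, chosen after the values of Igfbp2 were seen, at Euclidean distances from 0.926 to 1.13 on the centred log2 scale. Zbtb16, which encodes a zinc finger repressor, had 0.353 and 0.0855 RPKM in WT against 0.283 and 0.763 in Nfat5-/-. Such distances grow with the spread of a gene and are not comparable between members.

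Of the 2182 tested genes with at least 100 intron reads, 858 had a lower intron CPM in Nfat5-/- without overlap of the groups. In 123 of the 2182, Igfbp7 among them, the gene CPM was higher and the intron CPM lower in this way. The intron CPM of Igfbp7 was 3.31 and 4.91 in WT and 2.20 and 3.12 in Nfat5-/-.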
